A study of Homo sapiens with 8 samples.

Results

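The comparison set the A375 array of cells given an siRNA against ATF4 and then 10 uM vemurafenib for 4 h (siATF4/VEM) against the array of cells given a nontargeting siRNA and the vehicle DMSO (siCont/DMSO). It was defined by these treatment labels and takes 2 of the 8 arrays of the series, with 1 array in each group. A375 is an established human melanoma line with a mutated, active BRAF kinase, and every array comes from it. Both groups were transfected with siRNA and kept in RPMI1640 with 10% serum, and DMSO was given for the same 4 h. No siATF4 array in DMSO was analysed here, so the drug and the knockdown enter this comparison together and their parts cannot be told apart from these 2 arrays alone. The array of siCont cells in 10 uM vemurafenib for 4 h (siCont/VEM) was therefore set beside them throughout. It shares the DMSO array with the comparison, so agreement between the drug arrays is not separate support. The 5 other arrays lie on another intensity scale. Their values are given only for siATF4 and siCont in normal medium, at 18 h. All 8 arrays entered the choice of probe set for each gene.

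Vemurafenib blocks mutant BRAF, the kinase that drives MEK and ERK in these cells, and ERK in turn maintains a set of transcription factors, growth signals and its own feedback inhibitors. ATF4 is a basic leucine zipper transcription factor of the integrated stress response. It is translated when eIF2 alpha is phosphorylated, and pairs with C/EBP proteins on a composite DNA element to raise genes of amino acid synthesis, amino acid uptake, tRNA charging and stress-linked death. The siATF4/VEM array thus shows how far drug-treated cells with less of this factor lie from vehicle.

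The values are array intensities. All differences are differences of log2(intensity + 1) between single arrays, siATF4/VEM minus siCont/DMSO unless another pair is named. With no replicates there is no test, and a difference is called a difference here when it reaches 2-fold, a log2 size of 1. The median intensity was between 36.4 and 36.9 on the 3 arrays. The log2 difference between the 3' and 5' control probes of actin, a sign of RNA integrity, was -0.18 in DMSO, -0.07 in siCont/VEM and -0.0017 in siATF4/VEM. Of 14 measured melanocyte and neural crest markers, 11 reached the array median: SOX10 read 893 in DMSO and 669 in siATF4/VEM, and MITF read 546 and 878, while the pigment genes PMEL, at 26.7 and 25, and MLANA, at 21.4 and 23.3, lay below the array median. Of the markers of other cell types, PTPRC of blood (8.1 and 5.7), EPCAM of epithelium (8.6 and 14.1) and CDH5 of endothelium (9.7 and 9.2) lay below it too. Other markers of these types did not: 2 of 4 measured blood markers, 1 of 3 endothelial and 3 of 6 epithelial markers reached it on either array. The summed intensity of 5 fibroblast markers was 377 in DMSO, 411 in siCont/VEM and 516 in siATF4/VEM, mostly through LUM, at 83.4, 107 and 188. Without shared probe sets LUM differed by 0.25. The sum of 6 epithelial markers was 4128, 2484 and 2419 on these arrays, mostly through KRT18, at 3884, 2243 and 2155. The part of either list in the results was not tested.

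ATF4 itself was lower than in vehicle. Its intensity was 2390.4 in DMSO, 4548 in siCont/VEM and 757 in siATF4/VEM, so the knockdown array read lowest and the control drug array highest. The difference from DMSO was -1.66. Vemurafenib with siCont stood at 0.93 from the same DMSO array. The siATF4/VEM array thus read below the vehicle array as well as below the control drug array.

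Of 19775 genes named by 1 symbol, 13230 reached the array median on the array where they read higher and were compared. Of these, 253 were at least 2-fold higher in siATF4/VEM than in DMSO (1.91%) and 373 were at least 2-fold lower (2.82%). The median difference over all 13230 genes was 0.04, with an SD of 0.49 from gene to gene. Differences of 4-fold or more were found for 21 higher and 61 lower genes. Of the 626 genes, 500 had both values above the array median, and the sizes for the other 126 depend on background. The siCont/VEM array set against DMSO gave 113 higher (0.859%) and 253 lower (1.92%) of 13160 genes. Set against siCont/VEM, the siATF4/VEM array gave 27 higher (0.205%) and 96 lower (0.729%) of 13173, and in normal medium siATF4 against siCont gave 62 higher (0.471%) and 51 lower (0.387%) of 13170. The count of higher genes moved with the settings and was 163 with log2(intensity + 16), 148 with the filter at the 75th percentile and 149 with the mean of all probe sets of a gene.

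**Figure D1:**
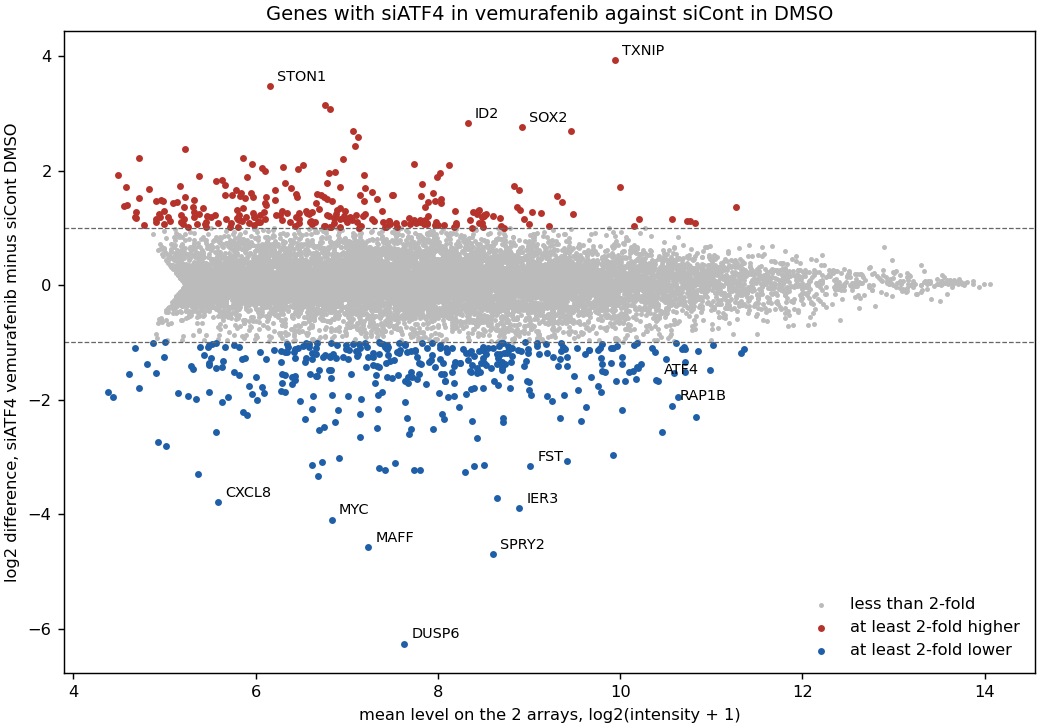
The plot sets the log2 difference of each gene (vertical, siATF4 vemurafenib minus siCont DMSO) against its mean level on the 2 arrays (horizontal, log2 of intensity plus 1), with the 253 genes at least 2-fold higher in red, the 373 lower in blue and dashed lines at 2-fold. The lower side reaches further, with DUSP6 at -6.26, than the upper side, led by TXNIP at 3.92.

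ERK feedback and output genes were low on both drug arrays, whether or not ATF4 was knocked down. Of the 31 genes of this list, all of them above the filter, 24 were at least 2-fold lower in siATF4/VEM than in DMSO, against 2.82% of all genes, and 0 were higher. The median of the list was -1.98, beside 0.04 over all genes. With siCont/VEM 23 of the 31 were lower (1.92% of all genes were), with a median of -2.18. Between the drug arrays 0 of the 31 differed by 2-fold, and the median of that difference was -0.04.

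DUSP6, the phosphatase that removes the activating phosphates of ERK, read 1733 in DMSO, 15 in siCont/VEM and 21.6 in siATF4/VEM. Both drug values were below the array median, and its difference of -6.26 was the largest of all genes, a size that depends on background. DUSP4, a nuclear relative that acts on the same kinases, read 1449.7, 108 and 109.6 on these arrays in that order, a difference of -3.71. The receptor feedback inhibitor SPRY2 read 1990.1, 92.5 and 75.4, a difference of -4.70. For these inhibitors the drug arrays lay together, far from vehicle. SPRED2, which holds back RAF activation, read 492, 79.1 and 53, lowest with siATF4, at -3.19.

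The transcription factors of the pathway were low as well. MYC, which drives growth and ribosome production, read 471 in DMSO, 52.6 in siCont/VEM and 26.6 in siATF4/VEM. Its difference from DMSO was -4.10, and the siATF4 array read lowest. MAFF, a small partner of the leucine zipper factors, read 735, 45.7 and 29.8, a difference of -4.58. Both MYC and MAFF lay below the array median in siATF4/VEM. ETV5, an ETS factor raised by ERK, read 524, 70.6 and 54.8, at -3.23. FOSL1, the AP-1 subunit stabilised by ERK, read 1008, 165 and 112, at -3.16. All 4 factors were lower with siATF4 than with siCont in the drug, at log2 differences of -0.96 for MYC, -0.60 for MAFF, -0.36 for ETV5 and -0.55 for FOSL1, each within 2-fold.

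Survival and receptor genes of the list behaved like the phosphatases. IER3, an early gene that protects from cell death, read 1834, 119 and 122, at -3.90. EPHA2, a receptor kinase for ephrins, read 975, 112 and 100.4, at -3.27. The growth factor TGFA, a ligand of the EGF receptor, read 1978, 220.1 and 234, at -3.07. These values on the drug arrays differ little beside their distance from DMSO. The G1 cyclin CCND1 read 2439.8, 537 and 763, at -1.68. Only BMF, a killer of the BCL2 family that ERK holds down, read higher than in DMSO, at 0.41, which is within 2-fold.

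**Figure D2:**
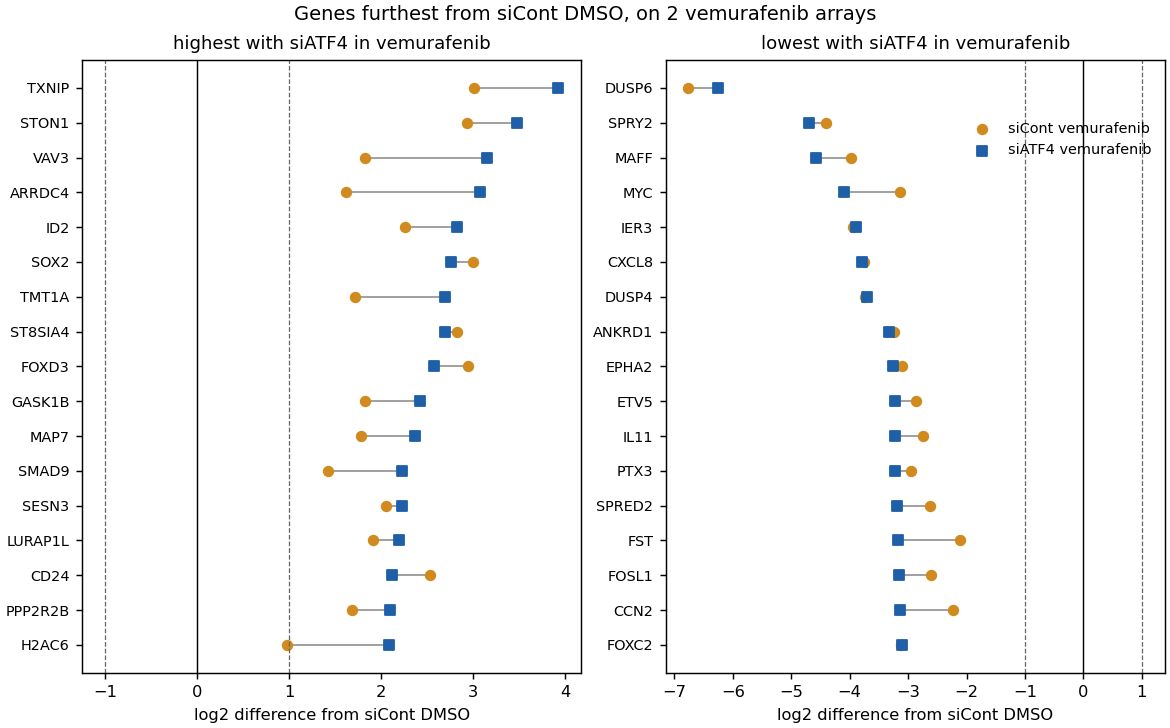
Each row is a gene, with its log2 difference from siCont DMSO on the siCont vemurafenib array (circle) and the siATF4 vemurafenib array (square). The left side shows 17 high genes and the right side 17 low genes of the comparison. Each side holds the 12 furthest genes with both values above the array median and the 5 furthest with a value below it. Dashed lines mark 2-fold. On the right the symbols nearly coincide for DUSP4, IER3 and FOXC2 and lie apart for FST, MYC and CCN2, while on the left VAV3, ARRDC4 and H2AC6 lie further from DMSO with siATF4.

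Immediate early genes and secreted factors were low in the same way. Of 22 immediate early genes above the filter, 12 were at least 2-fold lower in siATF4/VEM (2.82% of all genes were) and 0 higher, with a median of -1.05. CCN2, a matrix-linked growth factor also known as CTGF, read 1078 in DMSO, 227 in siCont/VEM and 122 in siATF4/VEM, at -3.14. EGR3, a zinc finger factor, read 267, 81.9 and 49.8, at -2.40, and CCN1, another matrix-linked factor, read 1729, 718 and 334, at -2.37. These genes were lowest on the siATF4 array. Of 17 YAP and TEAD target genes, a list that shares CCN1 and CCN2, 9 were lower (2.82% of all genes were) and 0 higher. The median of the list was -1.14. With siCont/VEM 6 were lower (1.92% of all genes were), with a median of -0.55.

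Of 13 cytokine and chemokine genes above the filter, 10 were at least 2-fold lower (2.82% of all genes were) and 0 higher, with a median of -1.56. LIF, 1 of the 10, is also in the ERK list. The neutrophil attractant CXCL8 read 178 in DMSO, 12.3 in siCont/VEM and 11.9 in siATF4/VEM. Its relative CXCL1 read 291, 27 and 32.2, and the cytokine IL11 read 682, 101 and 71.8. The drug arrays lay far below vehicle, at differences of -3.80, -3.14 and -3.23. The chemokines lay below the array median in the drug, and the count of 10 was 5 with the filter at the 75th percentile and 6 without probe sets shared between transcripts. Outside the lists, PTX3, a secreted pattern recognition protein, stood at -3.23, FST, a binder of activins, at -3.17 and the forkhead factor FOXC2 at -3.10. FST read 1546, 358 and 171, so that it was also lower on the siATF4 array than on the other drug array, by a log2 difference of -1.06.

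Genes that ATF4 is known to raise showed the opposite arrangement: several stood high on the control drug array and near or below the vehicle level with siATF4. The promoters of 4 of them are shown, because each holds the core of the composite element on which ATF4 pairs with C/EBP proteins. They were picked from these lists after their values were seen. CARS1 stood at 0.59 from DMSO in siCont/VEM, which is within 2-fold. ASNS, JDP2 and CARS1 have further starts in the table that are not shown, and the promoters at those starts lack the core. The sequences run from 250 bases before to 50 bases after a RefSeq transcription start, 5' to 3' in the direction of the gene, on GRCh38.p14, with the core TGATGNAA (N is any base, either strand) in capitals. They belong to CHAC1 at chr15:40953221-40953520 on the plus strand, ASNS at chr7:97872359-97872658 on the minus strand, JDP2 at chr14:75427772-75428071 on the plus strand and CARS1 at chr11:3057374-3057673 on the minus strand.
CHAC1: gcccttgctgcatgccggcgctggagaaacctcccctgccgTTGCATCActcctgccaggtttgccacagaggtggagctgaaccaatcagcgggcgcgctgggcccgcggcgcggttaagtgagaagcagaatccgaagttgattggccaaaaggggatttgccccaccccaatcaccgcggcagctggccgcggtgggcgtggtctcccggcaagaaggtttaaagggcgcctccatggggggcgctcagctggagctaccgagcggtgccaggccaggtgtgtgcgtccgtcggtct
ASNS: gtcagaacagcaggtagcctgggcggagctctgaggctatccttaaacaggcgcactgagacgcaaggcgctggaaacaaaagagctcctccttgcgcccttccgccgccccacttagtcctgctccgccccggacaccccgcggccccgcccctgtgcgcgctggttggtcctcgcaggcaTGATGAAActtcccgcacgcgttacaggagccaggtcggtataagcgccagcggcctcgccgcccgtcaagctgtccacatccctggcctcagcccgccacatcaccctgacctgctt
JDP2: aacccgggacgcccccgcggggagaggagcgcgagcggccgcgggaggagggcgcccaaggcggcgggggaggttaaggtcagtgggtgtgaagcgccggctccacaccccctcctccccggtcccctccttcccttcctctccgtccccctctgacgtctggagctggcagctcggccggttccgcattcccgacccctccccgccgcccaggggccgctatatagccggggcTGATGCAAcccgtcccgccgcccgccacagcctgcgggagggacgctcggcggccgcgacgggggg
CARS1: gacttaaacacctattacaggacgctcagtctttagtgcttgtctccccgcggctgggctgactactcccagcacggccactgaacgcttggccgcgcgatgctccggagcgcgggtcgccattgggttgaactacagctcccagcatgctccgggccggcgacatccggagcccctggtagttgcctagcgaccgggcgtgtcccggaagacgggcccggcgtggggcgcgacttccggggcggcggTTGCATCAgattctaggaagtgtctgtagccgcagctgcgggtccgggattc

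The core begins 209 bases before the start of CHAC1, 68 before that of ASNS, 16 before that of JDP2 and 2 before that of CARS1. It reads TGATGAAA in ASNS and TGATGCAA in JDP2, and in CHAC1 and CARS1 it lies on the other strand as TTGCATCA. Over the whole RefSeq table, 3.62% of 35116 promoters of this length hold the core. Among the genes of the ATF4 and CHOP list 5 of 32 promoters held it (15.6%), in the amino acid synthesis list 6 of 26 (23.1%), in the transporter list 6 of 33 (18.2%) and in the aminoacyl-tRNA synthetase list 6 of 19 (31.6%). Overlapping promoters of MTHFD1L share the same match in the synthesis list. Counted by gene, that list had 4 of 15, beside 4.46% of all genes. In the ERK list it was 1 of 37 (2.7%). The ETS core CCGGAAGT, searched on either strand, was in 4.14% of all promoters and in 0 of the 37 promoters of the ERK list. It was also in 5 of the 19 synthetase promoters (26.3%). A match is a run of letters and not a bound site.

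CHAC1, an enzyme that breaks down glutathione, read 46.6 in DMSO, 333 in siCont/VEM and 42 in siATF4/VEM. With siATF4 it thus read near the vehicle value, at -0.15, against 2.81 with siCont. JDP2, a repressor of the AP-1 family, read 60.2, 509 and 45.9, at -0.38 and 3.06. The lipoprotein receptor VLDLR read 50.8, 189.6 and 39.5, at -0.36 and 1.88. All 3 read high on the control drug array only. Their siATF4/VEM values lay close to the median of that array, 36.55, so how near they came to vehicle depends on background. JDP2 and VLDLR were singled out after their values were seen.

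Near-vehicle values marked a small set. Of the 113 genes at least 2-fold higher than DMSO in siCont/VEM, 6 lay within a log2 difference of 0.32 of DMSO in siATF4/VEM. They were CHAC1, RAB39B, NUPR1, MPP7, CAMTA2 and the noncoding RNA LINC00662. The small GTPase gene RAB39B read 35.2, 186 and 39.2, and NUPR1, a small chromatin protein of the stress response, read 41.7, 104 and 42.7. The junction scaffold gene MPP7 read 38, 90.8 and 34.5, and the calmodulin-binding factor CAMTA2 read 85.3, 189 and 79. CHAC1, RAB39B, NUPR1 and MPP7 lay near the array median in DMSO, so their sizes depend on background. The mirror pattern, low in siCont/VEM and near DMSO in siATF4/VEM, was found for 3 of the 253 genes lower in siCont/VEM. These were AFAP1, which binds actin, ANKEF1 and CSGALNACT1, an enzyme of chondroitin sulfate synthesis. ANKEF1 read 105, 48.2 and 109.9.

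As a list, the ATF4 and CHOP stress genes were centred on vehicle with siATF4. Of 29 listed genes, 27 lay above the filter. For list counts this filter was set on the siATF4/VEM and DMSO arrays in every comparison. The shares of all genes use the filter of their own comparison. INHBE read 8.91 in DMSO, 92.4 in siCont/VEM and 6.34 in siATF4/VEM. It failed the list filter and is in none of these counts. In siATF4/VEM 2 of the 27 were past 2-fold on the higher side of DMSO (1.91% of all genes were) and 4 on the lower (2.82%). The median was -0.05. In siCont/VEM 8 of the 27 were higher (0.859% of all genes were) and 0 lower, with a median of 0.54. Between the drug arrays 12 were lower with siATF4 (0.729% of all genes were) and 0 higher. VEGFA, the blood vessel growth factor, read 493, 598 and 133, at -1.88. CEBPG, a partner of ATF4, read 247, 459 and 107, at -1.20. The hormone gene STC2 read 120.5, 108 and 53.1, at -1.17, and TRIB3, a pseudokinase that restrains AKT and ATF4, read 749.5, 1108 and 344, at -1.12. CEBPG was at -0.99 with the mean of its probe sets and STC2 at -0.98 with log2(intensity + 16).

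The 2 genes on the higher side were NIBAN1 and DDIT3. NIBAN1, a stress-induced protein of the translation and survival machinery, read 368 in DMSO, 1084 in siCont/VEM and 1086 in siATF4/VEM. It was alike on the drug arrays, at 1.56 from vehicle. DDIT3, which encodes the death-linked factor CHOP, read 161, 541 and 343, at 1.09, which lies between vehicle and the control drug array. Without shared probe sets 1 of these 2, DDIT3, was counted, as NIBAN1 is read by shared probe sets. GDF15, a stress hormone, read 101, 70.7 and 97.3 and stood at -0.05. For siATF4 against siCont, GDF15 stood at 0.46 in the drug and at 2.21 in normal medium.

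Amino acid and one-carbon synthesis genes were split between those below and those above vehicle. Of 19 above the filter, 3 were at least 2-fold lower in siATF4/VEM than in DMSO (2.82% of all genes were) and 1 higher (1.91%), with a median of -0.18. In siCont/VEM 7 were higher (0.859% of all genes were) and 0 lower, with a median of 0.51. Between the drug arrays 10 were lower with siATF4 (0.729% of all genes were). ASNS, asparagine synthetase, read 548 in DMSO, 2326 in siCont/VEM and 256 in siATF4/VEM, at -1.09. ALDH1L2, a mitochondrial folate enzyme, read 59.9, 267 and 27.9, at -1.08, and lay below the array median in siATF4/VEM. PHGDH, the entry enzyme of serine synthesis, read 588, 1060.2 and 291, at -1.01. All 3 were high on the control drug array and under vehicle with siATF4. The count of 3 became 1 with log2(intensity + 16) and 1 when probe sets were averaged. ALDH1L2 was at -0.79 and PHGDH at -0.98 with the constant of 16, ALDH1L2 was at -0.66 and ASNS at -0.57 with averaged probe sets, and ASNS stood at -0.05 without shared probe sets.

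CTH, the transsulfuration enzyme that makes cysteine, was the exception in this list. It read 81.6 in DMSO, 700.1 in siCont/VEM and 190.2 in siATF4/VEM, so it was far lower than on the control drug array and still above vehicle, at 1.21. With the mean of all probe sets it stood at 0.89. The serine enzyme PSPH read 289, 1199 and 369, at 0.35, and PCK2, the mitochondrial enzyme that makes phosphoenolpyruvate, read 116, 412 and 149, at 0.36. Both were singled out after their values were seen and, like CTH, read lowest in DMSO. PYCR1, the last enzyme of proline synthesis, read 222, 317 and 214, near vehicle at -0.06.

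**Figure D3:**
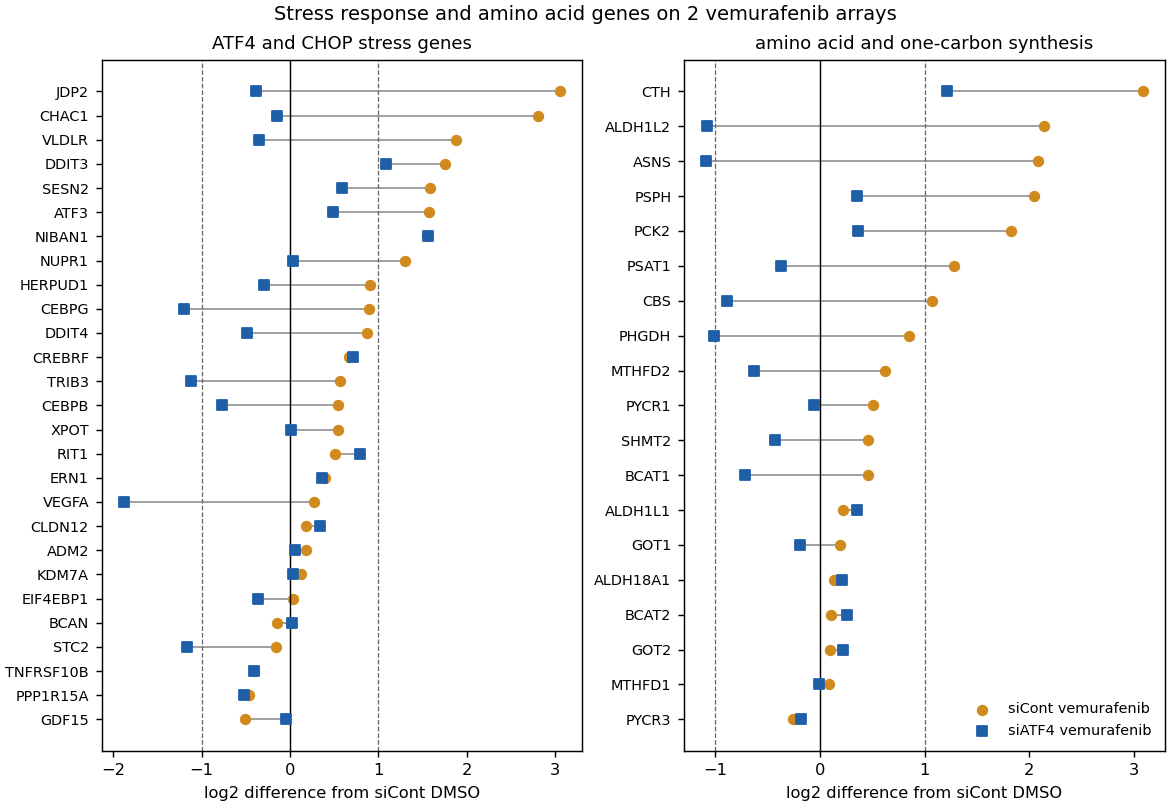
Each row is a gene of the ATF4 and CHOP list (left, 27 genes) or the amino acid and one-carbon list (right, 19 genes), with its log2 difference from siCont DMSO on the siCont vemurafenib array (circle) and the siATF4 vemurafenib array (square); dashed lines mark 2-fold. For most genes at the top the square lies far left of the circle and near or below 0, as for JDP2 and ASNS, while NIBAN1 has both at the same place.

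Transporters and tRNA charging enzymes were centred slightly below vehicle. Of 18 amino acid transporters above the filter, 4 were at least 2-fold lower in siATF4/VEM (2.82% of all genes were) and 0 higher, with a median of -0.16. SLC7A11, the cystine importer, read 571 in DMSO, 1129 in siCont/VEM and 220.1 in siATF4/VEM, at -1.37. SLC7A1, an arginine and lysine carrier, read 2228, 2661 and 1097, at -1.02. The glutamate carrier SLC1A1 differed in kind, as it was already low in siCont/VEM, at 276, 127 and 106. The lysosomal carrier SLC36A1 read 248, 185 and 117. The count of 4 was 2 with the mean of all probe sets, where SLC7A1 stood at -0.62 and SLC36A1 at -0.54. Without shared probe sets SLC7A1 was at -0.74, and with log2(intensity + 16) SLC36A1 was at -0.99. For siATF4 against siCont, SLC7A11 stood at -2.35 in the drug and at 0.25 in normal medium.

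Of 17 cytosolic aminoacyl-tRNA synthetases, 0 differed from DMSO by 2-fold, with a median of -0.10 and a range of -0.72 to 0.21. Lowest was YARS1, which charges tyrosine, at 1859 in DMSO, 2479.8 in siCont/VEM and 1126 in siATF4/VEM. CARS1, which charges cysteine and whose promoter is shown above, read 1616, 2437 and 998, at -0.70. Both lay highest on the control drug array and lowest with siATF4. SARS1, which charges serine, read 1223, 1993 and 1177 and was thus near vehicle, at -0.06. The list had a median of 0.31 in siCont/VEM. In the drug, 3 of its 17 genes were at least 2-fold lower with siATF4 than with siCont (0.729% of all genes were).

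CTPS1, which makes CTP with nitrogen from glutamine, was the only one of 8 glutamine enzymes past 2-fold (2.82% of all genes were lower). It read 1015 in DMSO, 689 in siCont/VEM and 266 in siATF4/VEM, at -1.93. The list's median was -0.01. Glutamate dehydrogenase GLUD1, for comparison, read 1671, 1674 and 1759.

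The gene furthest above vehicle in siATF4/VEM was TXNIP. This arrestin-like protein, which limits glucose uptake and binds thioredoxin, read 252 in DMSO, 2032 in siCont/VEM and 3839 in siATF4/VEM, at 3.92. Its relative ARRDC4 read 37.7, 118 and 324, at 3.07. Both were higher on the siATF4 array than on the other drug array, by log2 differences of 0.92 and 1.45. They belong to a list of 20 FOXO and glucose sensor genes, of which 6 were at least 2-fold higher (1.91% of all genes were) and 2 lower (2.82%). The median of the list was 0.48. SESN3, a brake of mTORC1, stood at 2.22 from a DMSO value below the array median, CCNG2, an atypical cyclin of resting cells, at 1.77, PDK4, which holds back pyruvate oxidation, at 1.18 and SESN1 at 1.14. Averaged over all its probe sets, SESN3 was at 0.57 and PDK4 at 0.55. The 2 lower genes were the pseudokinase TRIB2, at -2.61, and the insulin receptor substrate IRS1, at -1.56.

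The factors ID2, SOX2 and FOXD3 were high on both drug arrays. ID2, an inhibitor of helix-loop-helix factors, read 119.5 in DMSO, 577 in siCont/VEM and 853 in siATF4/VEM, at 2.82. SOX2, a factor of neural stem cells, read 185, 1485 and 1259, at 2.76. FOXD3, a forkhead factor of the early neural crest, read 55.9, 434 and 338, at 2.58. SOX2 and FOXD3 were a little lower with siATF4 than with siCont in the drug, and ID2 was higher. In normal medium ID2 stood at 1.65 with siATF4. The sialyltransferase gene ST8SIA4 read 277, 1972 and 1792, at 2.69, and the surface protein CD24 read 101, 589.8 and 442, at 2.11. GASK1B was at 2.42, LURAP1L at 2.19 and PPP2R2B, a regulatory subunit of a phosphatase, at 2.09. TMT1A, at 2.70, was at 0.84 with the mean of its probe sets and at 0.00976 without shared ones.

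Among high genes that started below the array median, STON1, an endocytic adaptor, read 20.5, 163 and 237, at 3.47. VAV3 read 35.3, 127 and 322, at 3.15. Both read lowest in DMSO and highest in siATF4/VEM. MAP7, a microtubule protein, was at 2.37 and SMAD9, of the BMP pathway, at 2.23. The lineage genes themselves were close to vehicle: of 11 melanocyte genes above the filter 0 differed by 2-fold, with a median of -0.00.

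A further set of genes stood apart only on the siATF4 array. They were at least 2-fold from DMSO in siATF4/VEM and within a log2 difference of 0.32 of DMSO in siCont/VEM. This held for 39 of the 373 lower and 11 of the 253 higher genes, so most genes past 2-fold were not of this kind. The largest lower one was RAP1B, a small GTPase of adhesion, at 3157 in DMSO, 2783 in siCont/VEM and 731 in siATF4/VEM. PMAIP1, which encodes the death protein NOXA, read 965, 855 and 271, and the integrin ITGA4 read 285, 278 and 86.5. The differences from DMSO were -2.11, -1.83 and -1.71. VEGFA, above, is also of this kind. For these genes the control drug array lay with vehicle and the siATF4 array apart.

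The other genes named from this set had varied roles. The vesicle protein gene VAMP3 read 1929, 2054 and 709, at -1.44. MCFD2, a cargo receptor of the secretory path, read 1425, 1203 and 467, at -1.61, and -0.74 with the mean of its probe sets. DCP2, which removes the cap of mRNAs, read 695, 562 and 248, at -1.48, and -0.98 with that mean. GALNT10 was at -1.58 and LDLRAD3 at -1.42. ACSL4, a fatty acid ligase, was at -1.65 and turned to 0.32 without shared probe sets. In normal medium RAP1B read 1684 with siCont and 840.4 with siATF4, and the knockdown difference was -0.82 for ITGA4, -0.38 for VAMP3 and 0.71 for PMAIP1, the last with the other sign.

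On the higher side, complement C3 read 105 in DMSO, 111 in siCont/VEM and 314 in siATF4/VEM, at 1.57. The aldo-keto reductase AKR1B10 read 58.8, 67.8 and 145, at 1.29. The interferon-induced GTPase GBP2 read 48, 55.8 and 113, at 1.22, and 0.80 with the mean of its probe sets. AHNAK2 was at 1.23. FDCSP, LEFTY1, PCAT6, GJA5 and H2BC4, at 1.67, 1.48, 1.30, 1.16 and 1.02, started below the array median.

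The histone genes H2BC21 and H2BC4 belong to this set, and H2AC6, already at 0.98 in siCont/VEM, does not. Of 11 histone genes above the filter, 3 were at least 2-fold higher in siATF4/VEM (1.91% of all genes were) and 0 lower, with a median of 0.63, beside 0.20 in siCont/VEM. H2AC6 read 134, 265 and 574, at 2.09, and H2BC21 read 41.7, 49.1 and 111, at 1.39. H2BC12 read 866, 1096 and 1628, at 0.91. The siATF4 array was highest for each. In normal medium siATF4 against siCont gave 1.65, 1.44, 0.99 and 0.88 for H2AC6, H2BC21, H2BC4 and H2BC12. Histone genes are near-identical copies that probes can share, and the count of 3 was 1 without shared probe sets and 1 with the filter at the 75th percentile. H2BC4 was at 0.73 with log2(intensity + 16).

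Replication and division genes were slightly lower than vehicle with siATF4, by less than 2-fold for nearly all. The S phase list counted 4 of 39 members past 2-fold on the lower side (2.82% of all genes were) and 0 on the higher, with a median of -0.47, while 37 of the 39 read below DMSO. The cyclin CCNE2 read 619 in DMSO, 312 in siCont/VEM and 175 in siATF4/VEM, at -1.82. CDC6, which loads the replicative helicase, read 649, 531 and 248, at -1.39. UHRF1, which keeps DNA methylation through replication, was at -1.15 and the replication factor MCM10 at -1.10, or -0.98 with the mean of its probe sets. In siCont/VEM the median was -0.10 and 0 of the 39 were past 2-fold.

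The median of the mitotic genes differed in sign between the drug arrays, while single genes such as CDC20 and CCNB1 did not. Of 33, 0 were past 2-fold on either array, and the median was -0.29 in siATF4/VEM and 0.18 in siCont/VEM. All 33 read lower in siATF4/VEM than in siCont/VEM, and 30 read lower than in DMSO. CDC20, which activates the anaphase complex, read 2784, 2435 and 1660.1, and the spindle protein TPX2 read 1401, 1576 and 867. The mitotic cyclin CCNB1 read 3020.2, 2994 and 2351. In normal medium the list had a median of 0.03 with siATF4 against siCont. The genes of such a list can vary together, so their number is not a number of separate observations, and a lower share of dividing cells cannot be told apart from less transcript per cell.

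**Figure D4:**
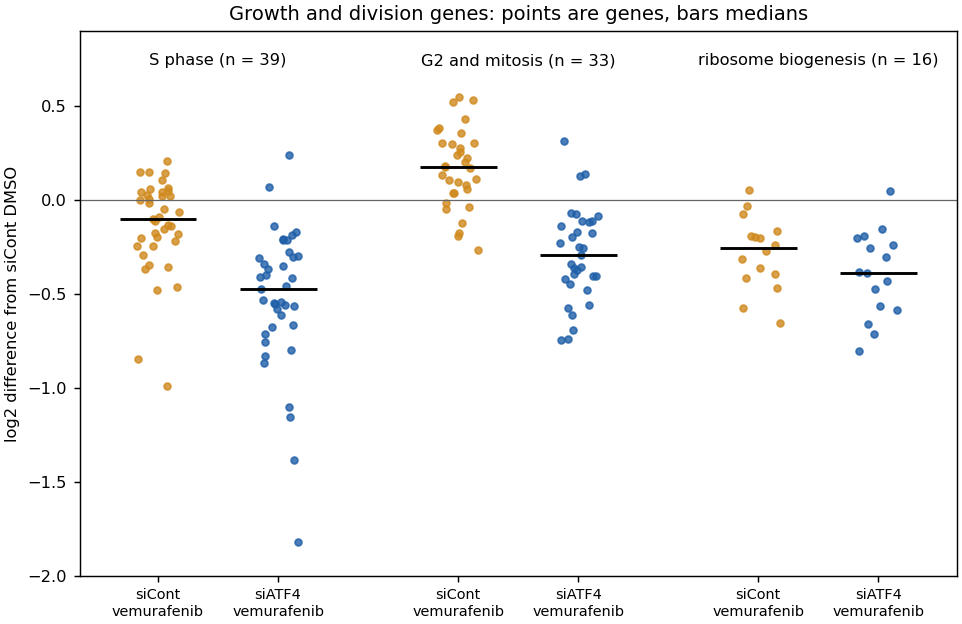
Points are genes and bars are medians of the log2 difference from siCont DMSO (vertical) on the siCont vemurafenib array (orange) and the siATF4 vemurafenib array (blue), for S phase, mitotic and ribosome biogenesis genes. The medians go from -0.10 to -0.47 for S phase and from 0.18 to -0.29 for mitosis, and CCNE2 is the lowest point.

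**Figure D5:**
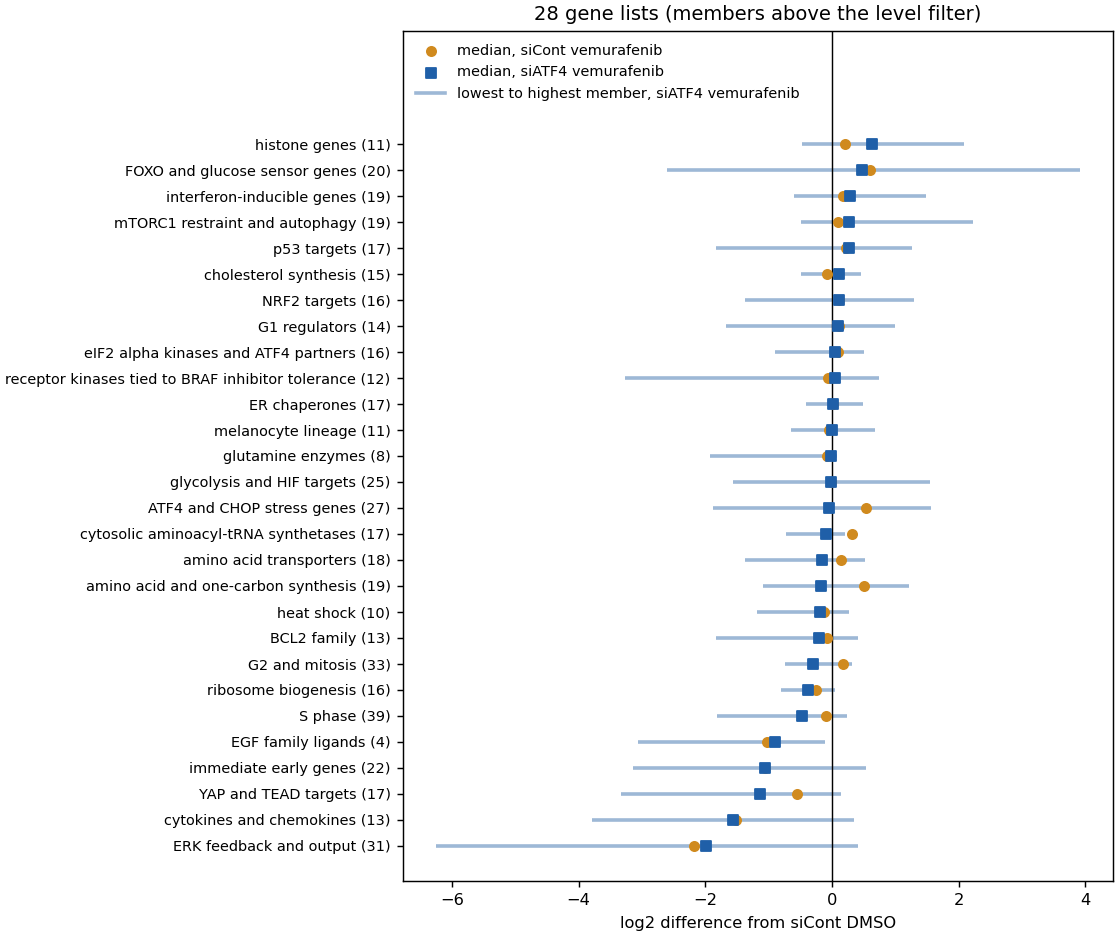
Rows are the 28 gene lists, with the number of members above the filter in brackets, the median log2 difference from siCont DMSO on the siCont vemurafenib array (circle) and the siATF4 vemurafenib array (square), and a line from the lowest to the highest member on the latter. The circle and square differ most for amino acid synthesis (0.51 and -0.18), and nearly coincide for immediate early genes (-1.06 and -1.05).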

How the data were processed

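Total RNA of A375 cells was measured on Affymetrix arrays, 1 per condition. The authors deposited intensities on a linear scale made with RMA, per the submitters' processing notes, with the version and the arrays normalized together not given in the sources used here. They were not normalized again, and log2(intensity + 1) was taken, which understates the change of low genes. Of 54675 probe sets, 41091 carry 1 gene symbol, 1801 several and 11721 none, and 62 are controls. Symbols come from the platform annotation and were updated by gene ID for 41037 probe sets. Where a gene has several probe sets, the brightest on average across all 8 arrays stands for it; it was compared if its higher value reached the array median. List members were filtered on the siATF4/VEM and DMSO arrays in every comparison, while shares over all genes use each comparison's own filter. With 1 array per condition no test was made. Named genes were the target, the highest and lowest genes (12 each way, and 5 each way with 1 value below the median), those near DMSO (within a log2 difference of 0.32) on 1 drug array, and the furthest members of 28 gene lists. The lists and rules were chosen with earlier results of these data known. Some genes, such as LIF, TGFA and EPHA2, are in more than 1 list, so list counts are not separate from each other. Promoters are from RefSeq (GRCh38.p14). The code, in Python 3.11.15 with pandas 2.3.3, was tested on simulated data. Alternatives were a constant of 16, a filter at the 75th percentile or none, other probe set rules, quantile normalization and a 1.5-fold threshold.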

Additional observations from a re-analysis of the deposited data

How the results depend on the processing

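The 253 higher genes became 163 with log2(intensity + 16), 148 with the filter at the 75th percentile and 149 with the mean of all probe sets, while the 373 lower genes stayed between 249 and 384 under every alternative at 2-fold. At 1.5-fold there were 1037 higher and 949 lower genes, and the 97 list members past 2-fold became 166. The other alternatives moved these counts by less than 1.5 times. Of the 626 genes past 2-fold, 479 remained past it with log2(intensity + 16), 452 with the stricter filter, 372 with the mean of all probe sets, 461 without shared probe sets and 615 under quantile normalization, all in the same direction. Without shared probe sets ACSL4 (0.32), CDKN2D (0.069) and HMGA2 (0.077) changed sign, and the cause was not tested. The share of higher genes among those past 2-fold was 40.4% as deposited and 32.7% to 42.3% under the alternatives. Of the 334 genes past 2-fold with several probe sets above the filter, 30 had probe sets of both signs. No paired analysis was possible because each condition has 1 array. Single arrays give no error between cultures, and values below the array median are limited by background.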

Other observations

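Single genes of sugar metabolism and heat shock read below vehicle on both drug arrays, past 2-fold in siATF4/VEM, while their list medians were within 2-fold. Of 25 glycolysis and HIF target genes above the filter, 4 were at least 2-fold lower in siATF4/VEM (2.82% of all genes were) and 1 higher (1.91%). The list median was -0.02. The glucose transporter SLC2A3 read 324 in DMSO, 84.8 in siCont/VEM and 108 in siATF4/VEM, and hexokinase HK2 read 719, 379 and 322. The glycolytic activator PFKFB3 stood at -1.10 and the peptide hormone ADM at -1.24, while EGLN3, the oxygen sensor of the HIF pathway, was higher at 1.54. Without shared probe sets the counts were 2 lower and 0 higher, HK2 was at -0.92 with the mean of its probe sets, and EGLN3 did not pass the filter at the 75th percentile. The cochaperone BAG3 was the only one of 10 heat shock genes past 2-fold, at 2002, 951 and 885, in a list with a median of -0.19, and 0 were past it without shared probe sets. Ribosome biogenesis genes had a median of -0.39, with 15 of 16 below DMSO and 0 past 2-fold, and WDR43 lowest at -0.80.

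Death and p53 genes were mixed. Beside each list count of this paragraph stand the shares over all genes, 1.91% at least 2-fold higher and 2.82% lower. A count of 1 gene in lists this small is not a result about the list. Of 13 BCL2 family genes, the survival factor MCL1, at 2617, 1056 and 904, and PMAIP1 were at least 2-fold lower. Of 17 p53 targets, TP53INP1, at 1.27, and SESN1 were higher and PLK3, at -1.05, and PMAIP1 lower. The cell cycle inhibitor CDKN1A read 666, 838 and 1325, at 0.99, and at 1.07 with siATF4 in normal medium. The p53 list had a median of 0.26 and the BCL2 list -0.21. With the mean of their probe sets TP53INP1 was at 0.40 and PLK3 at -0.35, and PLK3 was at -0.82 with log2(intensity + 16) and did not pass the filter at the 75th percentile. Receptors of growth factors were lower in 3 of 12, EPHA2 and, at lower size, EGFR, at 148, 61.3 and 57.7, and MET, at 2430.1, 1798 and 1142. When probe sets were averaged the count was 1, with EGFR at -0.42 and MET at -0.97. Among 19 interferon-inducible genes IFIT1 was past 2-fold, at 1.48, and the median was 0.28. IFIT1 did not pass the filter at the 75th percentile. Of 16 NRF2 targets AKR1B10 was higher and SLC7A11 lower, with a median of 0.11. Of 19 mTORC1 restraint and autophagy genes SESN1 and SESN3 were higher, with a median of 0.27. Of 14 G1 regulators CCND1 and CDKN2D, an inhibitor of the G1 kinases, were lower, with a median of 0.09, and CDKN2D turned to 0.069 without shared probe sets. Of the 4 EGF family ligands above the filter TGFA and HBEGF were lower, HBEGF at 302, 85.8 and 98.7, with a list median of -0.91. With the mean of its probe sets HBEGF was at -0.80, and the count was 1. At 2-fold, 0 of 15 cholesterol synthesis genes, 17 ER chaperones or 16 eIF2 alpha kinase and ATF4 partner genes differed, with medians of 0.11, 0.02 and 0.05. ERBB3, a receptor tied to tolerance of BRAF inhibitors, was at 0.47.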
